A study of Mus musculus with 6 samples.

Results

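The 10 enzymes of mitochondrial fatty acid oxidation described here, Cpt2, Acadvl, Acadl, Acadm, Acads, Echs1, Hadha, Hadh, Hadhb and Acaa2, were followed in CAD cells that had received a plasmid expressing miR-124a-2 or the empty vector. The platform annotation assigned 18 of the 45101 probe sets on the array to these 10 genes, and each of the 18 was read on its own. The enzymes were chosen by function, and selected on log2 differences between these same groups that were already known, so their values in that comparison are given as a description, with no p-value.

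CAD is a mouse neuroblastoma line of catecholaminergic origin, here a single cell line grown in culture. The treated cells were transfected with RIPmiR-124a-2, a plasmid that carries a precursor of miR-124, a microRNA enriched in brain, and the other cells with the RI vector alone. Each group had 3 biological replicates, and 1 array was run per replicate. The share of cells that took up the plasmid and the time after transfection are not stated in the labels. Each array gave a log2 signal for every probe set.

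Fatty acids reach the mitochondrial matrix as acylcarnitines, and carnitine palmitoyltransferase 2 (Cpt2) turns them back into acyl-CoA. Each turn of beta-oxidation then takes 4 steps, in order a dehydrogenation, a hydration, a second dehydrogenation and a thiolytic cut that releases acetyl-CoA. Long chains are handled at the inner membrane by the very long-chain dehydrogenase Acadvl and the trifunctional protein, a complex of Hadha and Hadhb. Shorter chains pass to soluble enzymes of the matrix. Neurons are known to oxidise fatty acids less than liver, heart or muscle do.

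By the brightest probe set of each of the 10 genes, 5 had lower signals in every miR-124a-2 plasmid array than in any empty vector array. These were both subunits of the trifunctional protein, the soluble enzymes Hadh and Acaa2 and the dehydrogenase Acadvl. The other 5 differed less, and among them Acadm was higher without overlap. Of all 45101 probe sets, dim ones and every probe set of a gene included, 6.96% were lower and 6.27% higher without overlap. The share among brightest probe sets alone was not counted, and nothing is read from the count of enzymes. Hadhb, Hadh, Acaa2 and Hadha had log2 differences of -0.998, -0.89, -0.78 and -0.65 in their brightest probe sets (miR-124a-2 plasmid minus empty vector, n = 3 each, SE 0.10 to 0.13). Among the dehydrogenases of the first step, Acadvl had -0.64, while Acadl, Acadm and Acads lay between -0.26 and 0.22. Cpt2 and Echs1 had 0.12 and 0.18. In bulk RNA, fewer cells with a transcript and less of it per cell cannot be told apart. Signals of different probe sets are not on a common scale, so only differences between groups are set side by side.

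Hadha and Hadhb encode the alpha and beta subunits of the same complex, and they are also neighbours. In the RefSeq promoter table, build GRCm38.p6, they start back to back 273 bases apart on opposite strands of chromosome 5, and their promoter windows overlap by 228 bases. The 272 bases between the starts are shown because both genes had lower signals in miR-124a-2 plasmid cells. They lie at chr5:30154981-30155252, on the strand of Hadhb, with Hadha reading away to the left, and capitals mark the GC boxes.
Hadha-Hadhb: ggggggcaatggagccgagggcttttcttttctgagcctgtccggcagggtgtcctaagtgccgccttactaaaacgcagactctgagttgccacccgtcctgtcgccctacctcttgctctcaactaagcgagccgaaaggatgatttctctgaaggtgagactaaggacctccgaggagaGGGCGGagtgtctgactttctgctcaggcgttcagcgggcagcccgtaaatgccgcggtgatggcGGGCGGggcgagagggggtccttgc
The search took both strands for the GC box of Sp1 (GGGCGG), the sites of estrogen-related receptors (AAGGTCA), ETS factors (CCGGAAG) and YY1 (AAGATGG), the CCAAT box (CCAAT) and the E-box (CACGTG). Between the starts only the GC box was found, 2 times. Of the 10 genes, 9 had a window of 250 bases before and 50 after the start, and Acaa2 had none. A GC box stood in 7 of these 9 windows, where 35.6% of 32817 mouse windows hold it. The 7 were those of Acadl, Hadh, Cpt2, Hadha, Hadhb, Acads and Echs1, and the windows of Acadm and Acadvl held none. The overlapping windows of Hadha and Hadhb share 1 of these boxes, so the 7 are not all separate sites. The G and C content of the windows is given at the end, and its part in this count was not tested. The YY1 site stood in 2, those of Hadha and Acadvl (6.34% of all windows), and in Hadha it lies after the start. The estrogen-related receptor site was found in the Acadm window alone (4.72% of all windows), the ETS site in that of Cpt2 (8.86%), the CCAAT box in that of Hadh (37.4%) and the E-box in none (7.15%). A match of letters is a description of the window and shows no binding.

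Signals on the 6 arrays ran from 2.59 to 14.39, and the bacterial tryptophan controls, which should be absent from the samples, averaged 3.37 to 3.50. A dim floor was set at 4.5, and 14 of the 18 probe sets were above it in at least 3 arrays. The other 4, 1 each of Cpt2, Acadl, Hadh and Hadhb, were near background. As a check of the plasmid, the reported miR-124 target Ptbp1 averaged 10.78 ± 0.22 with miR-124a-2 and 12.02 ± 0.04 with the empty vector (log2 signal, SD, n = 3 each) in its brightest probe set, a log2 difference of -1.24 (SE 0.12, limma adjusted p = 0.0180). Its other 2 probe sets did not pass, with -0.27 for 1450443_at (adjusted p = 0.709) and 0.07 for 1458284_at (adjusted p = 0.981). Of 10 markers of the CAD lineage, 9 were above the dim floor in every array, among them Dbh, the enzyme that makes noradrenaline, and the vesicle transporter gene Slc18a2 was at or below it in all 6. The 10 markers averaged 8.48 to 8.59 with miR-124a-2 and 8.21 to 8.32 with the empty vector, without overlap, and 0 of them passed the test. The part of this shift in the results below was not tested. Markers of leukocytes (5 measured) averaged 4.07 to 4.37 with miR-124a-2 and 4.04 to 4.19 with the empty vector, and markers of fibroblasts (6 measured) averaged 4.26 to 4.45 with miR-124a-2 and 4.28 to 4.38 with the empty vector. With miR-124a-2, markers of hepatocytes (3 measured) averaged 5.10 to 5.59, of muscle (4 measured) 4.755 to 5.15, and of astrocytes and oligodendrocytes (5 measured) 4.33 to 4.68. With the empty vector these averages were 5.22 to 5.47, 4.85 to 5.12 and 4.43 to 4.65. Above the dim floor in every array were 1 leukocyte, 2 fibroblast, 2 hepatocyte, 2 muscle and 3 astrocyte and oligodendrocyte markers. No marker of another cell type passed the test.

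The arrays also fell into sets that did not match the groups. Replicates 1 and 2 with miR-124a-2 and replicate 1 with the empty vector had narrow interquartile ranges of 3.06 to 3.10, and the remaining 3 arrays had wide ones of 3.26 to 3.35. In the replicate 1 arrays of both groups, the poly-A controls that are added before labelling averaged 5.97 with miR-124a-2 and 5.96 with the empty vector, against 5.57 to 5.71 in the other 4. The transferrin receptor control was brighter at its 3′ than at its 5′ end by 1.55 (log2) in plasmid replicate 1 and 1.34 in vector replicate 1, and by 0.95 to 1.09 elsewhere. Differences within each array set are therefore given below, and each rests on a single array in one group.

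**Figure D1:**
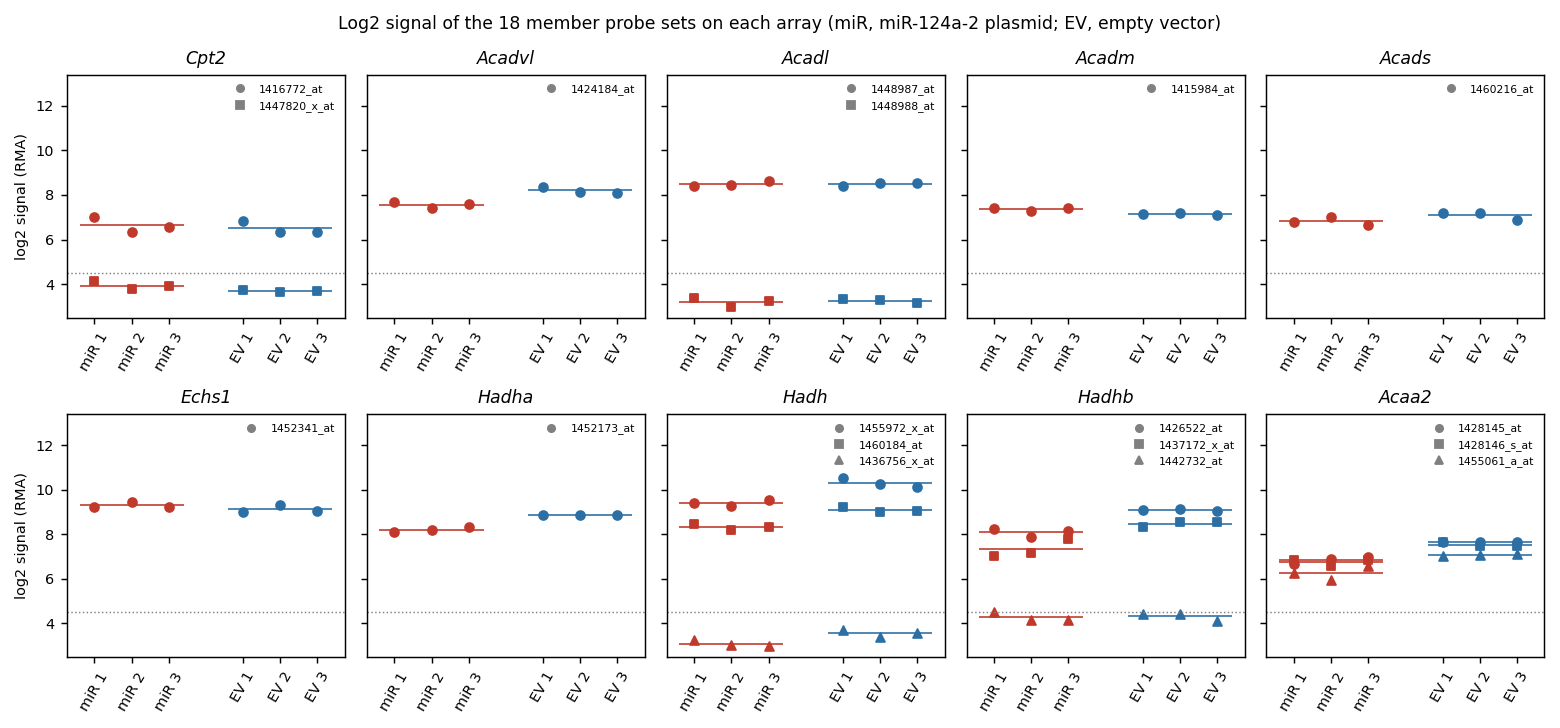
Log2 signal (RMA, vertical axis) of the 18 probe sets on each array, 1 panel per gene, with the 3 miR-124a-2 plasmid arrays (miR, red) left of the 3 empty vector arrays (EV, blue). Marker shapes separate probe sets of a gene, horizontal lines are group means and the dotted line is the dim floor of 4.5. The red points lie below the blue ones without overlap for Acadvl, Hadha, Hadh, Acaa2 and the bright probe sets of Hadhb.

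Hadhb, the beta subunit and thiolase of the trifunctional protein, showed the largest difference. Its brightest probe set, 1426522_at, read 8.22, 7.88 and 8.16 with miR-124a-2 and 9.09, 9.12 and 9.04 with the empty vector. Every plasmid array lay at least 0.8 below every vector array, although no vector array differed from another by more than 0.1. The log2 difference was -0.998 ± 0.11 (SE), or 2.0-fold lower, with -1.04 among narrow and -0.92 among wide arrays. Another probe set, 1437172_x_at, whose suffix marks probes that may also match other transcripts, read 7.01, 7.14 and 7.80 with miR-124a-2 against 8.33, 8.54 and 8.54 with the empty vector. The groups did not overlap, and plasmid replicate 3, a wide array, was the closest to the vector arrays. That difference was -1.15 ± 0.20 (SE), with -1.25 among narrow and -0.73 among wide arrays. The last probe set, 1442732_at, near background, averaged 4.27 with miR-124a-2 and 4.32 with the empty vector.

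Hadha, the alpha subunit, carries the hydratase and the long-chain 3-hydroxyacyl-CoA dehydrogenase of the complex and had a single probe set, 1452173_at. It read 8.09, 8.20 and 8.31 with miR-124a-2 and 8.84, 8.86 and 8.87 with the empty vector. The 3 vector arrays were nearly equal (SD 0.012), and all 3 plasmid arrays were below them. The difference was -0.65 ± 0.10 (SE), or 1.57-fold lower, with -0.70 among narrow and -0.55 among wide arrays. In their brightest probe sets, both subunits of the complex therefore had lower signals in every miR-124a-2 plasmid array than in any empty vector array.

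Hadh is the soluble 3-hydroxyacyl-CoA dehydrogenase of medium and short chains. Its brightest probe set, 1455972_x_at, read 9.42, 9.28 and 9.55 with miR-124a-2 and 10.54, 10.24 and 10.14 with the empty vector. The difference was -0.89 ± 0.13 (SE), or 1.86-fold lower, and it was -1.19 among narrow and -0.64 among wide arrays, a change of over 1.5 times. Empty vector replicate 1, the only vector array in the narrow set, was the highest of all. Probe set 1460184_at, whose suffix marks no shared probes, gave 8.48, 8.20 and 8.33 against 9.24, 8.998 and 9.05, a difference of -0.76 ± 0.11 (SE). Neither of these 2 probe sets had groups that overlapped. The dim probe set 1436756_x_at averaged 3.09 with miR-124a-2 and 3.55 with the empty vector, at the level of the tryptophan controls, and is given as a value only.

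Acaa2 is the soluble 3-ketoacyl-CoA thiolase of the matrix and closes the cycle for shorter chains. Its 3 probe sets gave nearly the same difference, -0.78 ± 0.11, -0.78 ± 0.11 and -0.80 ± 0.16 (SE). The brightest, 1428145_at, read 6.67, 6.90 and 7.0 with miR-124a-2 and 7.63, 7.65 and 7.63 with the empty vector. The vector arrays agreed within 0.02, and the plasmid arrays lay 0.6 to 1.0 below them. Probe set 1428146_s_at, also of the kind that may match other transcripts, read 6.83, 6.58 and 6.84 against 7.66, 7.46 and 7.47. Probe set 1455061_a_at read 6.28, 5.93 and 6.58 against 7.02, 7.05 and 7.12. Within the narrow arrays the 3 differences were -0.85, -0.96 and -0.91, and within the wide arrays they were -0.64, -0.63 and -0.50.

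Echs1, the soluble enoyl-CoA hydratase of the second step, did not follow these enzymes. It read 9.23, 9.47 and 9.22 with miR-124a-2 and 9.004, 9.32 and 9.05 with the empty vector, and the groups overlapped. Replicate 2 was the highest array in both groups. The difference was 0.18 ± 0.12 (SE), with 0.35 among narrow and 0.04 among wide arrays.

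The 4 acyl-CoA dehydrogenases of the first step differ in the chain length they accept. Acadvl, for the longest chains, read 7.69, 7.41 and 7.58 with miR-124a-2 and 8.38, 8.15 and 8.08 with the empty vector. The groups did not overlap, replicate 1 was the highest array in both, and the difference was -0.64 ± 0.12 (SE), or 1.56-fold lower (-0.83 narrow, -0.54 wide). Acadl, the long-chain enzyme, read 8.39, 8.47 and 8.62 with miR-124a-2 and 8.42, 8.55 and 8.54 with the empty vector in its bright probe set. Those groups overlapped, and the difference was -0.01 ± 0.10 (SE). The dim Acadl probe set averaged 3.20 with miR-124a-2 and 3.26 with the empty vector.

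Acadm, the medium-chain enzyme, was the bright probe set with higher values in every miR-124a-2 plasmid array. It read 7.42, 7.27 and 7.41 with miR-124a-2 and 7.15, 7.20 and 7.08 with the empty vector, a difference of 0.22 ± 0.09 (SE). The groups did not overlap, and the gap between the nearest arrays was under 0.1. Acads, the short-chain enzyme, read 6.80, 7.02 and 6.67 with miR-124a-2 and 7.18, 7.20 and 6.89 with the empty vector, with overlap and a difference of -0.26 ± 0.13 (SE).

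Cpt2 varied more between replicates than between groups. Its brightest probe set read 7.01, 6.33 and 6.57 with miR-124a-2 and 6.83, 6.36 and 6.36 with the empty vector, a difference of 0.12 ± 0.20 (SE). Replicate 1, the array with high poly-A controls in each group, was the highest in both, and the part of those arrays in this spread was not tested. Without plasmid replicate 1 the difference was -0.07, and without replicate 1 of both groups it was 0.09. The dim Cpt2 probe set averaged 3.94 with miR-124a-2 and 3.70 with the empty vector.

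**Figure D2:**
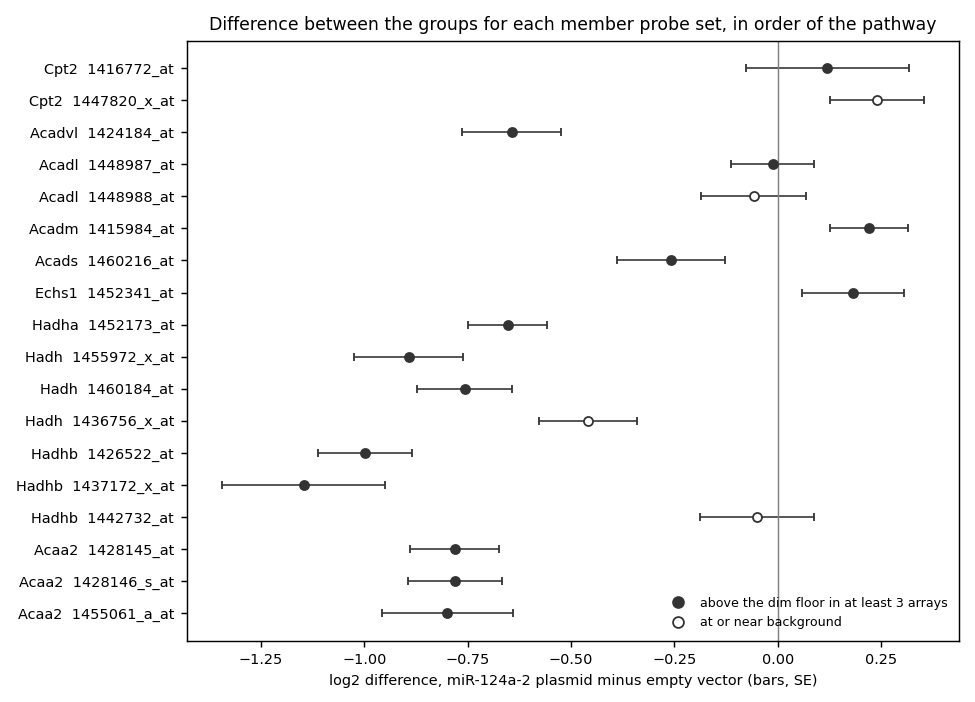
Log2 difference, miR-124a-2 plasmid minus empty vector, of each of the 18 probe sets, with standard errors from the fit over all probe sets. Rows follow the pathway from Cpt2 at the top to Acaa2 at the bottom, filled points are probe sets above the dim floor, and 14 of the 18 points lie below 0.

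In the limma fit over all 45101 probe sets (Benjamini-Hochberg, threshold 0.05), 5 of the 18 probe sets passed as lower, where 0.208% of all probe sets did, and 0 passed as higher, where 0.0599% did. These 5 were 1426522_at of Hadhb, 1452173_at of Hadha, 1455972_x_at of Hadh and 1428145_at and 1428146_s_at of Acaa2. Since this contrast was used to propose the genes, nothing is read from the count. Values that did not overlap were lower with miR-124a-2 in 10 of the 18 (the dim Hadh probe set included), where 6.96% of all probe sets were, and higher in 2 (Acadm and the dim probe set of Cpt2), where 6.27% were. Differences were below 0 in 14 of the 18, where 49.3% of all probe sets were. The median log2 difference of the 18 was -0.55, against 0.0023 over all probe sets. The count of passing probe sets depended on single arrays: it was 0 without plasmid replicate 1, plasmid replicate 2 or any of vector replicates 1, 2 and 3, and 7 without plasmid replicate 3. Over the same 6 fits, the number of all probe sets that passed was 0, 12, 0, 0, 0 and 352. Taking the array set as a block, 8 of the 18 passed as lower, where 0.69% of all probe sets did. These 8 added the probe set of Acadvl, the second of Hadh and the second of Hadhb to the 5. Their log2 differences under all alternatives kept their sign (the 8 probe sets ran from -1.39 to -0.56).

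**Figure D3:**
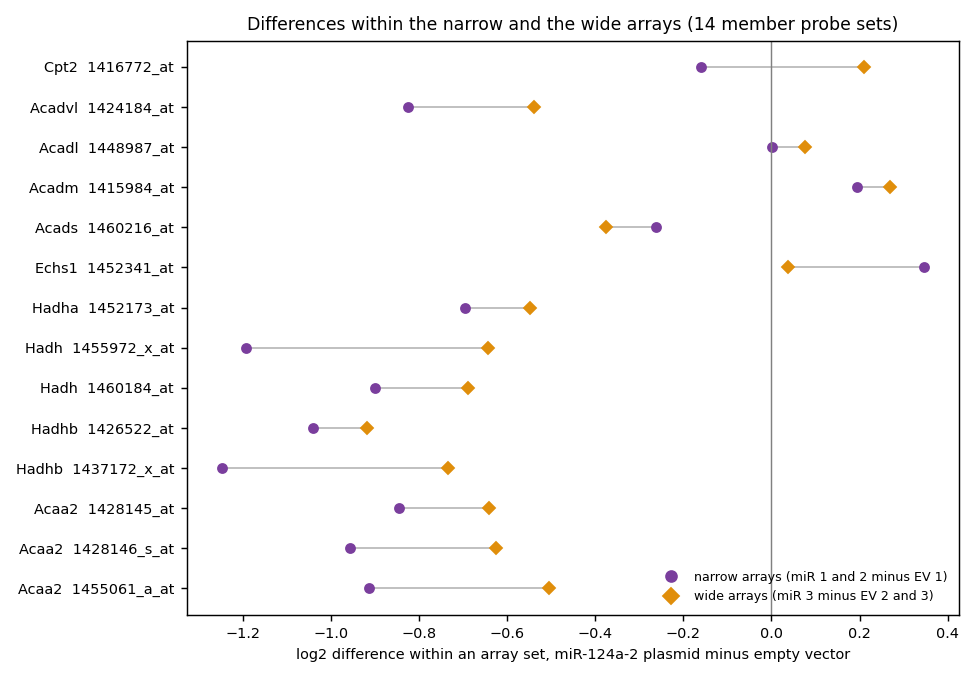
Log2 differences within the narrow arrays (circles, miR-124a-2 plasmid replicates 1 and 2 minus empty vector replicate 1) and within the wide arrays (diamonds, plasmid replicate 3 minus vector replicates 2 and 3) for the 14 probe sets above the dim floor. For Hadha, Hadhb, Hadh, Acaa2 and Acadvl both symbols lie below 0, and the wide value is the smaller in size.

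The genes around these enzymes were read from 9 lists, each gene by its brightest probe set. Of 129 measured genes, 0 passed limma's test in either direction, and 17 had an unadjusted p under 0.05 (11 lower, 6 higher). Over the brightest probe sets of all genes, 10.6% had an unadjusted p under 0.05. The median log2 difference of the 129 was 0.03, and 57 were below 0.

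Of 16 genes of fatty acid uptake, activation and the carnitine shuttle, 0 passed (median 0.05). The largest values were 0.35 for Cpt1c, the brain form of carnitine palmitoyltransferase 1 (limma adjusted p = 0.518), and -0.31 for Crot, the peroxisomal carnitine octanoyltransferase (adjusted p = 0.425). Of 14 auxiliary beta-oxidation and electron transfer genes, 0 passed (median 0.01). The largest values were -0.37 for the acyl-CoA thioesterase gene Acot2 (adjusted p = 0.314) and -0.36 for Eci1, the enoyl-CoA isomerase for unsaturated chains (adjusted p = 0.317). Cpt1a, Etfa and Etfb are named after their values were seen. Cpt1a, the entry enzyme of the shuttle, had -0.05 ± 0.10 (log2 difference, SE). Etfa and Etfb together form the electron acceptor of the acyl-CoA dehydrogenases. Etfa had 0.0037 ± 0.10, with groups that overlapped. Etfb had -0.31 ± 0.11, lower with miR-124a-2 without overlap, and did not pass (limma adjusted p = 0.434). None of 4 ketone body and malonyl-CoA genes passed (median 0.12), with 0.25 for Mlycd, which breaks down malonyl-CoA, and 0.16 for the ketone body enzyme gene Bdh1.

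Peroxisomes run a separate beta-oxidation with their own enzymes, and 0 of 12 of those genes passed (median 0.08). Ehhadh, the peroxisomal bifunctional enzyme and a relative of Hadha, read 4.81, 4.68 and 5.27 with miR-124a-2 and 4.08, 4.27 and 4.36 with the empty vector. That log2 difference of 0.68 ± 0.16 (SE) did not pass (limma adjusted p = 0.183), and it passed once the array set was a block (0.81, adjusted p = 0.0176) or under the replicate block (0.68, adjusted p = 0.0443). The signal was near the dim floor, with 3 of 6 arrays above it. Pecr, a peroxisomal reductase, had -0.40 (adjusted p = 0.466).

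Of 19 genes of branched-chain amino acid and propionate oxidation, 0 passed (median 0.09), with -0.65 for Dbt, a subunit of the branched-chain ketoacid dehydrogenase (adjusted p = 0.429), and -0.34 for Aldh6a1, which was dim. Of 13 transcriptional regulators, 0 passed (median -0.04), with -0.37 for the lipid-sensing nuclear receptor gene Pparg (adjusted p = 0.215) and -0.28 for Nrf1 (adjusted p = 0.738). Of 18 respiratory chain and ATP synthase genes, 0 passed, 16 were above 0 and the median was 0.05. Their largest values were 0.21 for Atp5c1 and 0.13 for Cox7a2. Of 18 genes of mitochondrial import, chaperones and channels, 0 passed (median -0.03), with 0.37 for the fusion gene Mfn2 (adjusted p = 0.471) and -0.24 for the chaperonin gene Hspe1.

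Of 15 genes of fatty acid synthesis, 0 passed by the brightest probe set (median -0.07). Elovl1, which elongates saturated and monounsaturated very long chains, read 7.53, 7.12 and 7.89 with miR-124a-2 and 8.54, 8.81 and 8.79 with the empty vector in that probe set. Its log2 difference of -1.20 ± 0.19 (SE) missed the threshold (limma adjusted p = 0.0626). Of its 4 probe sets, all lower, 2 passed, 1456530_x_at with -1.19 (adjusted p = 0.0146) and 1455994_x_at with -1.27 (adjusted p = 0.0226). Elovl5, an elongase of polyunsaturated chains, had -0.85 (adjusted p = 0.296).

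**Figure D4:**
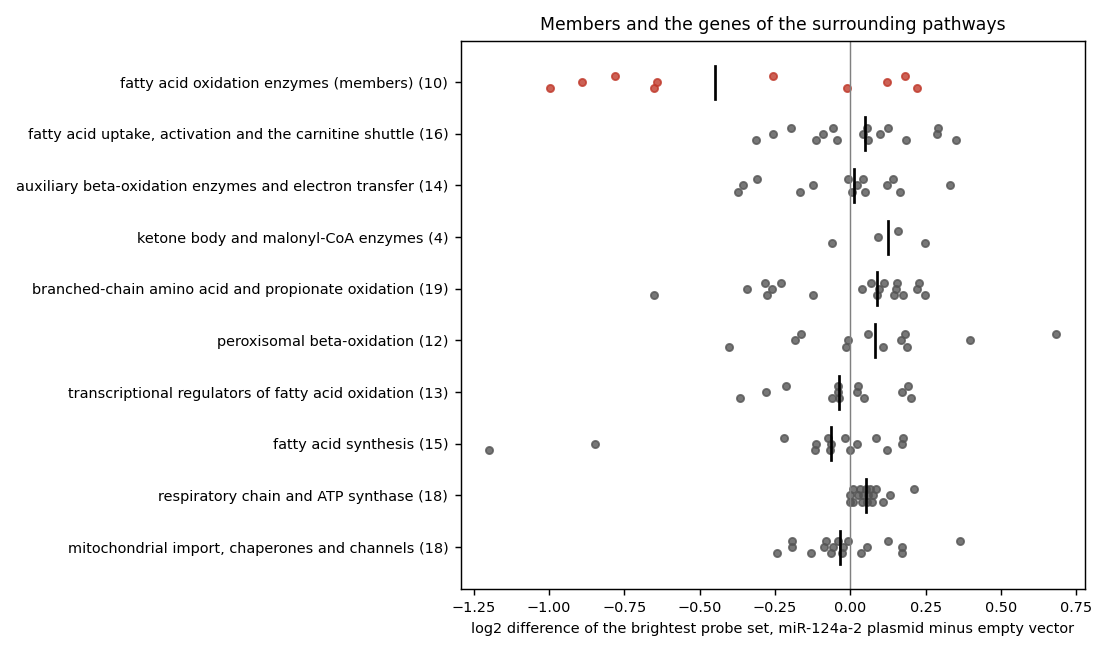
Log2 difference, miR-124a-2 plasmid minus empty vector, of the brightest probe set of each gene. The 10 fatty acid oxidation enzymes are red in the top row and the 129 genes of the 9 surrounding lists are grey (number of genes in brackets), with a black bar at each median. Of the red points, 5 lie below -0.5, and the medians of the grey rows lie between -0.07 and 0.12.

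The profile of Hadha over the 6 arrays was compared with that of every other gene, each by its brightest probe set and centred on its mean. The 5 nearest genes outside the 10 enzymes were Trmt6, a subunit of a tRNA methyltransferase, Tor1b, a torsin ATPase, the focal adhesion gene Rsu1, the collagen prolyl hydroxylase gene P4ha1 and the kinase gene Stk38. Their distances were 0.10 to 0.14 on the log2 scale, and their log2 differences ran from -0.75 to -0.57. In the order of 18193 genes, Acaa2 stood at rank 16, Acadvl at 220, Hadh at 454 and its partner Hadhb at 743. Acads stood at 1655 and Acadl at 4780, and Echs1, Acadm and Cpt2 stood at 14915, 15164 and 16630. Distance reads the size of a difference as well as its shape, and the log2 difference between the groups was -0.998 for Hadhb and -0.65 for Hadha. The enzymes were selected on log2 differences between these same groups, and those differences enter the distance. The ranks therefore restate them in part, and nothing further is read from the ranks.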

How the data were processed

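Total RNA of 6 CAD cell samples, labelled as biological replicates, was labelled with biotin and measured on 6 arrays. The authors deposited log2 signals, 1 for each probe set and array. RMA made them, per the submitters' processing notes. Its version, probe definitions and filters are not given in the sources used here. Array medians were 4.72 to 4.83, and the values were used as given. In the platform annotation 34958 probe sets name 1 gene and 932 name several. No probe set naming several genes held one of the 10 enzymes.

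The miR-124a-2 plasmid arrays were set against the empty vector arrays with limma 3.58.1 in R 4.3.3 (lmFit, eBayes, two-sided, no block) over all 45101 probe sets, with Benjamini-Hochberg adjustment and a threshold of 0.05. Standard errors are from that fit. Alternatives were 3 blocks (replicate number, array set, poly-A batch), leaving out arrays, other normalizations, variance models, filters, rules for probe sets and thresholds. The fit was tested on simulated data with known changes. The number of arrays limits the precision. The dim floor is the highest array mean of the tryptophan controls plus 1. Array sets and poly-A batches were divided at the largest gap between arrays. The 10 enzymes, the 9 lists and the alternatives were chosen with earlier results of these data known. Named from each list were up to 4 genes that passed, or, where none passed, the 2 with the largest difference, and from the profiles the 5 nearest genes. Promoter sequences are from RefSeq, build GRCm38.p6, where 9 of the 10 genes, all but Acaa2, matched by symbol.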

Additional observations from a re-analysis of the deposited data

How the results depend on the processing

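The number of all probe sets that passed was 121. It was 673 with the replicate block, 509 when the array set and 339 when the poly-A batch was a block, 262 with quantile normalization, 244 with cyclic loess, 215 with an intensity trend, 229 with trend and robust estimation, 39 with median centring, and 0 at adjusted p under 0.01 or with replicates 2 and 3 only (3688 and 3732 at an unadjusted p under 0.05 in limma). Leaving out single arrays gave 0 to 352. Of the 18 enzyme probe sets, 5 passed. The number was 9 with the replicate block, 8 when the array set and 8 when the poly-A batch was a block, 1 with median centring (1426522_at of Hadhb), 3 without probe sets ending in _s_at or _x_at, 0 at adjusted p under 0.01, 0 with replicates 2 and 3 only, and 0 to 7 without single arrays. Their median of -0.55 became -0.71 with the filter on dim probe sets and -0.26 without probe sets ending in _s_at or _x_at, both of which leave fewer probe sets. The listed genes that passed numbered 0, and 3 with the replicate block (Elovl1, Elovl5, Ehhadh), 2 when the array set (Elovl1, Ehhadh) and 1 when the poly-A batch (Elovl5) was a block. The number was 1 (Elovl1) with quantile normalization, cyclic loess, an intensity trend, trend and robust estimation, the brightest probe set of each gene or the mean of its probe sets, and 0 to 1 without single arrays. The cause of these moves was not tested. For the replicate block, same-numbered arrays of the groups had correlations of their deviations of 0.58, 0.03 and 0.56. Plasmid replicates 1 and 3 correlated best with the vector array of the same number, and plasmid replicate 2 with vector replicate 1 (0.09). The labels do not state a pairing, and these values do not settle whether the numbers pair the arrays. The main fit therefore used no block.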

Other observations

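Genes that start back to back as Hadha and Hadhb do were counted in the RefSeq promoter table, as a description with limits chosen after the data were seen. There were 756 pairs on opposite strands with starts at most 500 bases apart and both genes on the array, each gene by its brightest probe set. At least 1 gene of the pair had a log2 difference below -0.5 in 50 pairs, and both did in 1 pair, Hadha and Hadhb. Below -0.25, both genes did in 15 pairs. Hadha and Hadhb were selected on log2 differences between these same groups, so nothing is read from these counts. Of all 18194 genes, 2.21% were below -0.5 and 7.73% below -0.25. The promoter windows of the 9 enzymes had 50.7% to 70.3% G and C and 9 to 34 CpG dinucleotides, against medians of 52.7% and 7 over all windows, and Acadvl had the lowest values of both among the 9.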
